A study of Mus musculus with 5480 samples.

Results

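The nuclear genes of oxidative phosphorylation encode the subunits of the mitochondrial respiratory chain that are read from the chromosomes of the nucleus and imported into the organelle. They were taken from a table of read counts in single mesenchymal cells of the distal mouse lung by symbol: every row that begins with Nduf and the letter a, b, c, s or v and a digit, with Uqcr, with Cox4 to Cox8 and the letter a, b, c or i, or with Atp5. Cox4i2, Ndufa4l2 and processed copies named with the suffix ps were left out of the set, and Cox4i2 and Ndufa4l2 are given beside it as related isoforms. The rule found 81 of 18072 genes. They comprised 39 genes of complex I, 8 of complex III, 17 of complex IV and 17 of complex V. By the GENCODE annotation, 77 were protein coding and 4 were processed pseudogenes (Ndufa11b, Ndufb4c, Ndufs6b and Cox6c2).

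Complex I (NADH dehydrogenase) and complex III (cytochrome bc1) pass electrons to complex IV (cytochrome c oxidase), which reduces oxygen, and complex V (ATP synthase) uses the proton gradient that the chain builds. Many subunits of complex IV have a ubiquitous isoform and another that is known from particular tissues, such as Cox6a2, Cox7a1 and Cox8b in muscle and brown fat and Cox6b2 in testis. In the lung, Cox4i2 is the known isoform of subunit IV. Ndufa4 carries a complex I name, but its product is now placed in complex IV, and its paralog Ndufa4l2 is known as a gene induced by low oxygen.

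The cells were sorted and sequenced on plates, with 1 cell per well, and all but 71 came from a mesenchymal sort. Of those 71, 69 came from a sort labelled CD31 and 2 from a sort labelled CD45, and the authors gave them mesenchymal subtypes. The data held 5480 cells of 10 mice in 5 groups: embryonic day 18.5 (E18.5), the postnatal days P1, P7 and P21 without added oxygen (normal air), and hyperoxia sampled on P7. Each group held 1 female and 1 male. Strain, genotype and the oxygen level of the hyperoxia were not given in the sources used here, and each group therefore stands for 2 animals that share an age and an exposure. The authors gave each cell 1 of 16 subtype labels. A library here is the summed reads of a subtype in a mouse, levels are read counts scaled to library size and composition (CPM), and 62 of the 64 libraries with at least 10 cells carry the levels. The other 2, of striated muscle (16 cells) and of male hyperoxic fibroblasts (55 cells, 0.903% of reads in the 81 genes), were each found in a single mouse and are left out of ranges.

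Each mouse gave 311 to 633 cells and 294154721 to 671766116 reads, with a median of 774305 reads per cell. The median number of genes per cell was 2962 to 3848 in the E18.5 and P1 mice, 2988 and 2963 in the P7 mice kept in normal air, 4268 and 5545 under hyperoxia and 3168.5 and 2061 at P21 (female, then male). By their main sequencing run, the 4 males in normal air went together, as did the E18.5 and P1 females, while the other mice each had a different main run. Outside the main run of their mouse were 68 cells. Hyperoxia therefore cannot be told apart from run. The thinnest libraries were those of early alveolar fibroblasts at E18.5, with 14 and 24 cells and a median of 1042 and 1232 genes per cell. The collagen genes Col1a1, Col1a2 and Col3a1 summed to at least 1555 CPM in each of the 62 libraries. The authors named subtypes from these same cells, so a difference between subtypes is not independent of the labels.

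The 81 genes together took 0.613% to 2.77% of the counted reads in the 62 libraries, with a median of 1.62%. The counts cover no mitochondrially encoded genes and no cytosolic ribosomal protein genes, so each share is of the reads counted for the genes that remain. The share was lowest at P21. In early alveolar fibroblasts it was 1.83% in the female and 2.31% in the male at P7, against 0.629% and 1.03% in the alveolar fibroblasts of P21. In pericytes, the cells that wrap capillaries, it was 1.73% and 1.84% at P7 and 0.662% and 1.22% at P21. The share was lower at P21 than at P7 in both sexes in each of the 5 cell classes compared, and the groups did not overlap. Medians over the libraries of a mouse were 0.629% in the P21 female and 1.12% in the P21 male, against 1.60% to 2.03% in the other mice in normal air. They were 1.64% and 1.31% under hyperoxia. A share of reads cannot tell fewer transcripts of these genes from more transcripts of others.

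**Figure D1:**
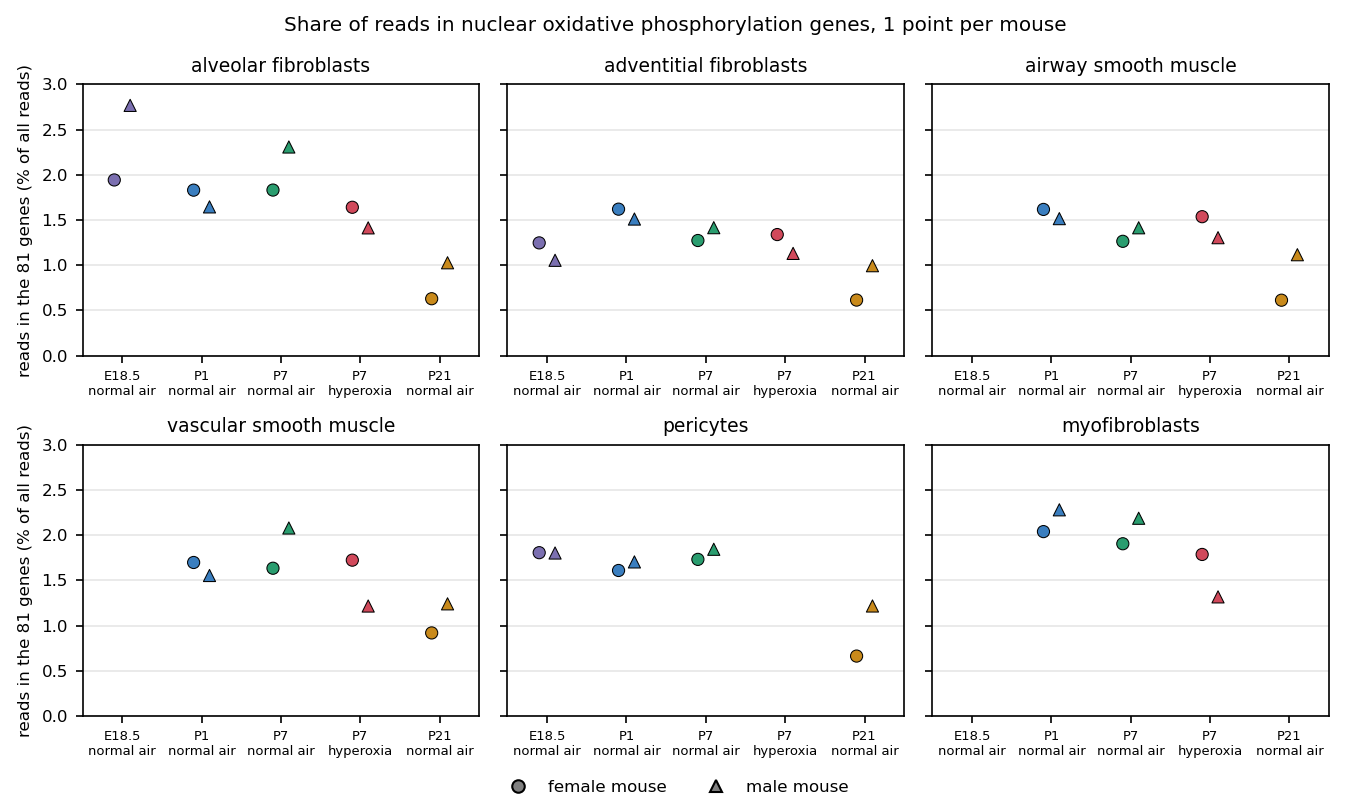
Share of all counted reads that fell in the 81 genes (y axis, percent of reads) by group (x axis) in 6 cell classes, 1 panel each. A circle marks the female and a triangle the male. The P21 points lie at 0.613% to 1.24%, under the P7 points of the same class in normal air, which lie at 1.26% to 2.31%.

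Within each complex the members differed widely in level. Levels per kilobase of annotated exon are given in parentheses after the level in CPM, both as medians over 62 libraries. The 2 highest and 2 lowest members of each complex by CPM are named. Per kilobase, other members exceed some of the highest, such as Ndufa2 in complex I at 355 per kb. In complex I, Ndufa11 had 297 CPM (272 per kb) and Ndufa4 289 CPM (209 per kb), while the core subunit Ndufs3 had 1.56 CPM (0.715 per kb) and the pseudogene Ndufa11b 1.78 CPM (4.20 per kb). Among the other core subunits, which carry the iron-sulfur clusters and the flavin, Ndufs7 had 153 per kb, Ndufs8 152 per kb, Ndufv2 116 per kb and Ndufs1 9.13 per kb. In complex III, Uqcr10, a small subunit, stood at 210 CPM (360 per kb) and Uqcrh, the hinge protein, at 234 CPM (189 per kb). Uqcrc1, a core protein, stood at 15.0 CPM (3.64 per kb) and Uqcrfs1, the Rieske protein, at 137 CPM (101 per kb).

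In complex IV ubiquitous isoforms led per kilobase, with Cox4i1 at 814 CPM (525 per kb), Cox8a at 465 per kb, Cox6b1 at 419 per kb and Cox6a1 at 402 per kb. Cox6c, second by CPM, was at 393 CPM (110 per kb). Cox6a2 and Cox7b2 had a median of 0 CPM. In complex V, Atp5b, the catalytic beta subunit, had 908 CPM (214 per kb) and Atp5a1, the alpha subunit, 688 CPM (220 per kb). Atp5g2, a gene of the c-ring, had 5.31 CPM (3.17 per kb) and Atp5s, which encodes coupling factor B, 13.9 CPM (6.83 per kb). Ndufs3, Atp5g2, Atp5l, Uqcrc1 and Ndufb4 had low levels throughout. How reads that match copies elsewhere in the genome were counted is not given in the sources used here, so these levels and those of the 4 pseudogenes are uncertain. Atp5o shared 43.8% of its exonic bases with overlapping genes, Ndufb6 39.0% and Ndufa13 30.0%, and their reads cannot be told apart from those of the neighbours.

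RefSeq start sites on GRCm38.p6 were available for 63 of the 81 genes, with 68 windows of 300 bases, from 250 before to 50 after the start. Motifs known from respiratory gene promoters were searched on both strands. The NRF1 motif GCGCATGCG occurred in 8 windows (11.8%, against 1.75% of 32851 windows of all genes), the YY1 motif AAGATGGCG in 7 (10.3% against 1.40%), the ETS motif CCGGAAGT in 5 (7.35% against 3.89%) and the estrogen-related receptor motif TCAAGGTCA in 1 (1.47% against 0.423%). At least 1 of the 4 was present in 20 windows, or 29.4%, against 7.11% of all windows. Genes with the NRF1 motif were Atp5g2, Atp5k, Atp5l, Cox6a1, Ndufa11, Ndufa8, Uqcr11 and Uqcrc1. Uqcr11 also held the ETS motif, which Atp5h, Cox8a, Ndufs3 and Uqcrh shared. To show what such a promoter looks like, the 250 bases before the start of Uqcr11, a small subunit of complex III (chr10:80406822-80407071, minus strand), and of Cox6a1 (chr5:115348959-115349208, minus strand) are printed 5′ to 3′ from RefSeq, GRCm38.p6. Capitals mark the ETS motif in Uqcr11, which begins 66 bases before the start, and in Cox6a1 2 overlapping NRF1 motifs, 1 on each strand, which begin 162 bases before it.

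Uqcr11: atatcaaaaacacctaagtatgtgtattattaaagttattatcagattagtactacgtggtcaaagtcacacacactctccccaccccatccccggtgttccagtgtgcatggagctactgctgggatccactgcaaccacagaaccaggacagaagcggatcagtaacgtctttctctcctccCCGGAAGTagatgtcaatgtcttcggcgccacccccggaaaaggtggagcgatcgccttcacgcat
Cox6a1: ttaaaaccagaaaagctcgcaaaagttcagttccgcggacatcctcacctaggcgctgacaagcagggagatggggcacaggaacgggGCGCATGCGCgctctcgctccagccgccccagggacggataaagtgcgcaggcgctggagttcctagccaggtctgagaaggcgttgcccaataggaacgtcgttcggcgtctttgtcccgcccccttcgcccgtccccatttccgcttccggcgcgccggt

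The tissue isoforms of complex IV fell into 3 levels. Cox6b2 was above 0 in 61 of 62 libraries, with a median of 40.0 CPM (36.1 per kb) beside 296 CPM of Cox6b1. Cox8b was above 0 in 23 libraries and reached 17.7 CPM, beside a median of 288 CPM of Cox8a. Cox7a1 was above 0 in 34 libraries with a median of 0.0373 CPM and a maximum of 4.67 CPM, beside 208 CPM of Cox7a2. Cox6a2 was above 0 in 13 libraries and reached 4.79 CPM, beside 282 CPM of Cox6a1. Cox7b2, a testis isoform, was above 0 in 12 libraries and reached 0.833 CPM. Cox6a2 had a read in 14 of 5462 cells outside the striated muscle label.

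Reads of the pair Cox6b1 and Cox6b2 were split by subtype. Cox6b2 gave 21.5% to 51.9% of the pair's reads in proliferating fibroblasts, with a median of 41.5% over 5 libraries. In early alveolar fibroblasts it gave 7.87% to 29.8% (median 22.0%, 8 libraries) and in early adventitial fibroblasts, which lie around vessels and airways, 8.32% to 24.7% (median 17.4%). It gave 0.0426% to 12.0% in pericytes (median 2.38%) and 1.04% to 25.6% in myofibroblasts (median 3.53%). The range of proliferating fibroblasts lay above that of pericytes, while those of early alveolar and early adventitial fibroblasts overlapped with it.

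**Figure D2:**
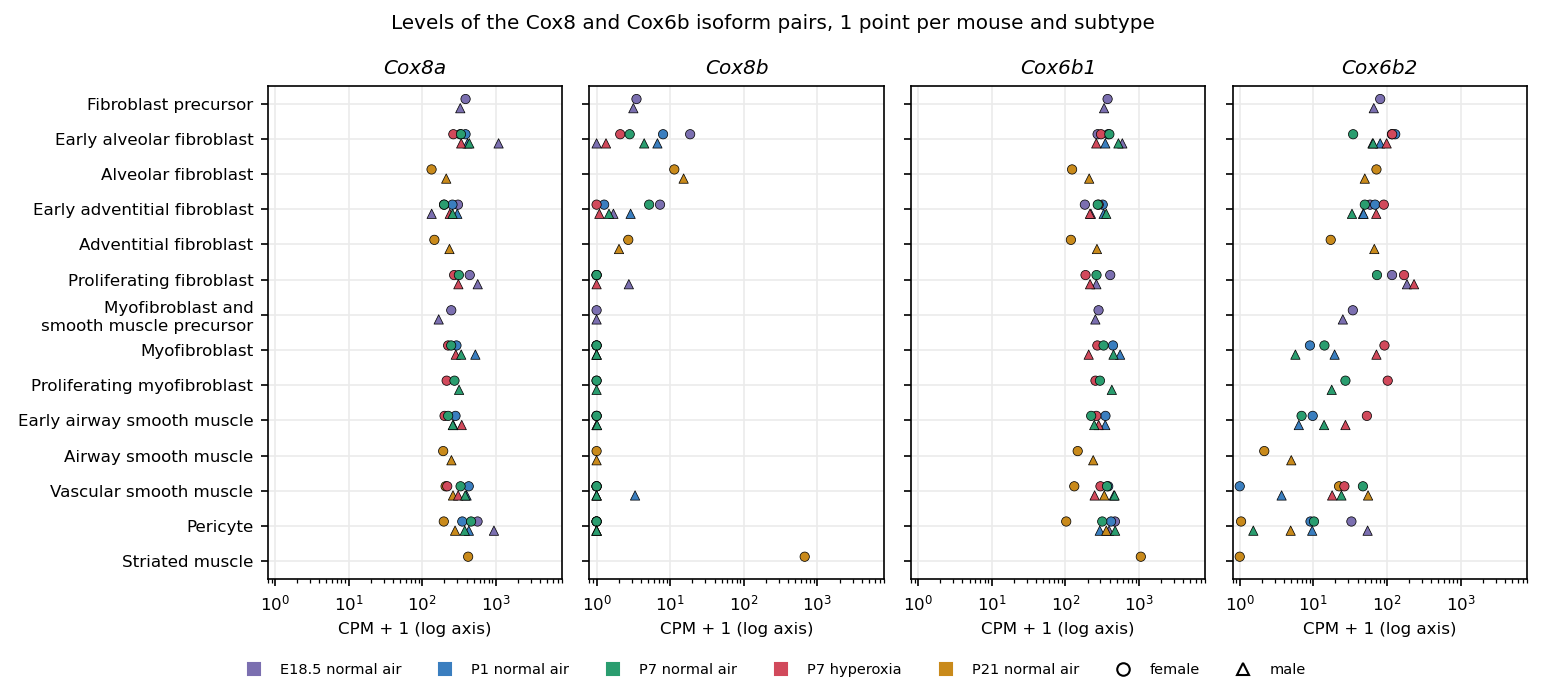
Levels of Cox8a, Cox8b, Cox6b1 and Cox6b2 (x axis, CPM plus 1 on a log scale) in each library of 14 subtypes (rows), with color for the group, a circle for the female and a triangle for the male. Cox8a and Cox6b1 lie above 100 CPM throughout, while Cox8b leaves the axis in fibroblast subtypes and in striated muscle cells (671 CPM).

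Pericytes held little Ndufa4. It was at 9.03 CPM in the E18.5 female and 59.2 CPM in the E18.5 male. P1 pericytes held 32.3 and 62.1 CPM, P7 pericytes 0.890 and 0 CPM, and those of P21 0.0434 and 8.99 CPM. Every other subtype of those 8 mice among the 62 libraries lay at 74.7 to 763 CPM. In all 8 mice pericytes were thus the lowest subtype, and they overlapped with none. Pericytes of P1 and P7 were lower than the mean of 5 other subtypes, with a fitted log2 difference of -4.22 (SE 1.00, adjusted p = 0.00827, edgeR's quasi-likelihood test with Benjamini-Hochberg adjustment, 4 mice). At P21 it was -6.21 (SE 1.44, adjusted p = 0.0484, 2 mice). Without the P7 female the difference at P1 and P7 was -3.68 (adjusted p = 0.0609), the only mouse whose absence ended that call. The call at P21 was lost with at least 20 cells per library (-6.50, adjusted p = 0.0502). At the median of the other subtypes Ndufa4 was 37.4-fold and 5.94-fold higher than in pericytes at E18.5 (female, then male). It was 10.5-fold and 6.54-fold higher at P1, 396-fold in the P7 female and 34.7-fold in the P21 male. Pericytes of the P21 female and the P7 male held 2 and 0 reads, under a floor of 3 counts, so no fold is given there.

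The reads that remained came from few cells. A read of Ndufa4 was found in 12 of 281 pericytes (4.27%, 95% Wilson interval 2.46% to 7.31%) against 4558 of 5199 other cells (87.7%). Depth was close in both, with a median of 648751 reads in pericytes and 782088 in other cells, and with every cell thinned to 100000 reads the pericyte share was 3.27%. The 12 cells had a median of 192 CPM (0.690 to 587 CPM) and came from 7 of the 10 mice. All 12 also held Ndufa4l2 reads and 11 held Cox4i2 reads. Among cells labelled proliferating pericytes, 5 of 19 had a read of Ndufa4. Intervals here cover counting error only, since reads without molecular identifiers are not independent molecules.

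The 250 bases before the RefSeq start of Ndufa4 (chr6:11907451-11907700, GRCm38.p6, minus strand) are printed because this gene had the largest fall among the members that passed between subtypes. None of the 4 motifs is in them.

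Ndufa4: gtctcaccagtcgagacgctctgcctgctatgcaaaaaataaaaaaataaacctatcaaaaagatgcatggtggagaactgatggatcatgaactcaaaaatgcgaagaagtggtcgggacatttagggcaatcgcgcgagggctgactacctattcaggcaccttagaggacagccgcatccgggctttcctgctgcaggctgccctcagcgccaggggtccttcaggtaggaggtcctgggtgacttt

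In place of Ndufa4, pericytes held its paralog. Ndufa4l2 was at 1889 and 2870 CPM (female, then male) in E18.5 pericytes, 3066 and 2187 CPM on P1, 2356 and 1654 CPM on P7 and 1312 and 2415 CPM on P21. Its reads made up 97.2% to 100% of the pair in pericytes. Against the other subtypes Ndufa4l2 was higher by 5.94 (log2, SE 0.79, adjusted p = 2.88e-05) at P1 and P7 and by 7.60 (SE 1.09, adjusted p = 0.00619) at P21. Cox4i2, the lung isoform of subunit IV, was higher by 7.02 (SE 0.59, adjusted p = 8.5e-08) and 7.39 (SE 0.98, adjusted p = 0.00402). Cox4i2 is among the pericyte markers used here, so its own difference partly restates the label. It was at 1117 to 4025 CPM in pericytes and had reads in 277 of 281. Unlike Ndufa4, the ubiquitous Cox4i1 was kept in pericytes at 343 to 1654 CPM, and Cox4i2 gave 40.3% to 87.1% of the reads of that pair.

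Vascular smooth muscle held both paralogs. It was the lowest subtype for Ndufa4 after pericytes in the P1 female, the P7 female and both P21 mice, and early adventitial fibroblasts were lower in the P1 and P7 males. Ndufa4 was at 147 and 326 CPM on P1, 219 and 320 CPM on P7, 264 and 134 CPM under hyperoxia and 74.7 and 144 CPM at P21. Ndufa4l2 was higher there than in the other subtypes by 3.52 (log2, SE 0.81, adjusted p = 0.0096) at P1 and P7, and by 6.18 (SE 1.06, adjusted p = 0.0262) at P21. With at least 20 cells per library both of these Ndufa4l2 calls were lost (adjusted p = 0.072 and 0.286), and the first was also lost without the P1 female (adjusted p = 0.0846). It gave 56.8% to 89.1% of the pair's reads. Of 201 cells, 84 held reads of both genes, 49 of Ndufa4 alone, 50 of Ndufa4l2 alone and 18 of neither. In pericytes the same counts were 12, 0, 249 and 20 of 281. Fibroblast precursors at E18.5 held both genes in 403 of 764 cells. Early alveolar fibroblasts held Ndufa4 alone in 1295 and both in 186 of 1618.

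The 5 pericyte markers (Cox4i2, Higd1b, Kcnj8, Pdgfrb and Cspg4) summed to 5119 to 8149 CPM in pericytes and to 783 to 3065 CPM in vascular smooth muscle. Higd1b alone was at 972 to 2449 CPM in pericytes and 27.1 to 197 CPM in vascular smooth muscle, which matches the labels. The alveolar fibroblast markers Tcf21, Npnt, Fgfr4 and Inmt, from a cell type with high Ndufa4, summed to 120 to 908 CPM in pericytes, and their part in the remaining Ndufa4 reads was not tested.

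**Figure D3:**
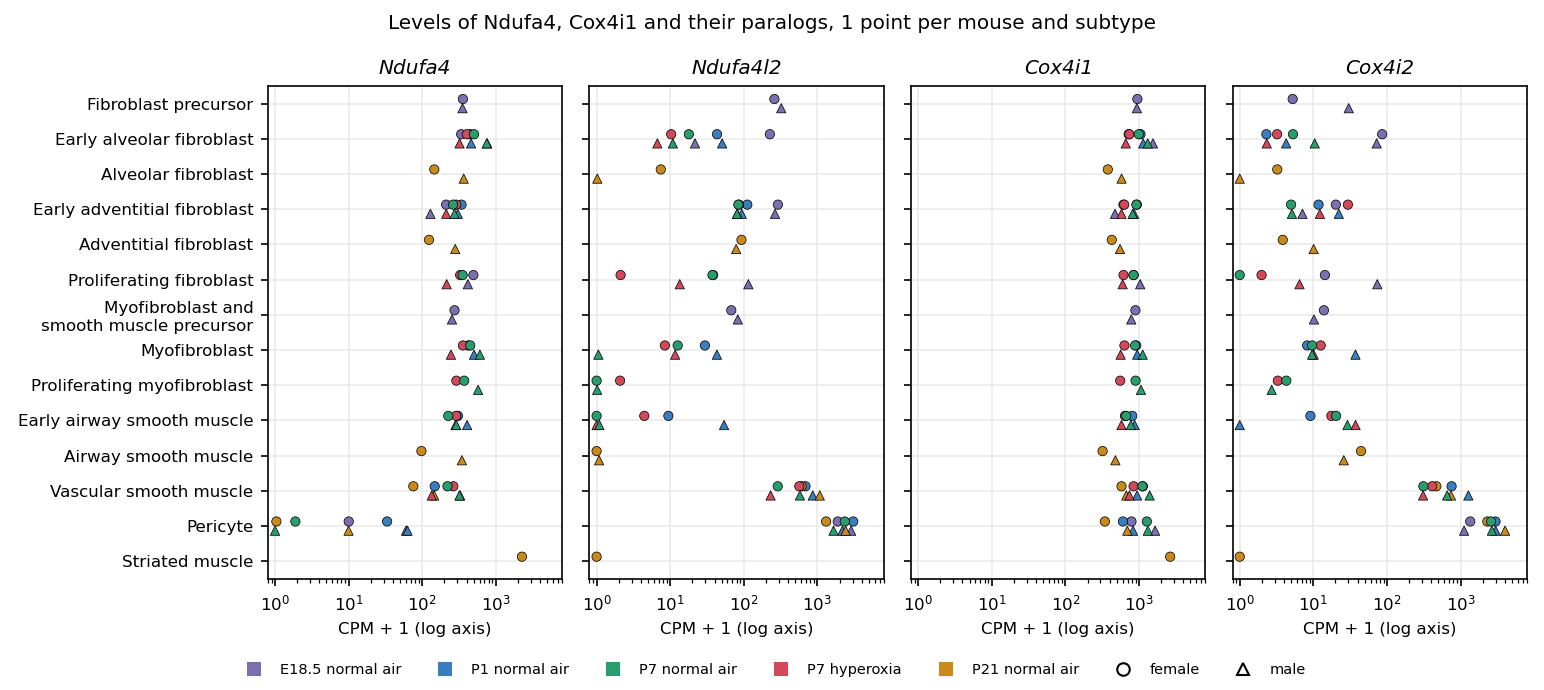
Levels of Ndufa4, Ndufa4l2, Cox4i1 and Cox4i2 (x axis, CPM plus 1 on a log scale) in each library of 14 subtypes (rows), with color for the group, a circle for the female and a triangle for the male. Pericytes lie at 0 to 62.1 CPM of Ndufa4, to the left of every other subtype, and at 1312 to 3066 CPM of Ndufa4l2, to the right of them.

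In early alveolar fibroblasts the share of members called was below that of all genes, and 2 of the 3 calls were isoforms of complex IV. At P1 and P7, 3 of 79 members tested were higher there than in the mean of 5 other subtypes and 0 were lower, against 8.44% of all genes called in either direction. Cox8b was at 7.00 and 5.71 CPM at P1 and 1.82 and 3.43 CPM at P7 (female, then male), while the median of the 20 other libraries was 0 (adjusted p = 0.00137). It was the highest of the 6 subtypes in 3 of 4 mice. Its fitted difference depends on the small count that the fit adds to libraries at 0, and no size is given for it. Cox6b2 was at 129 and 79.9 CPM at P1 and 33.7 and 63.9 CPM at P7, against a median of 9.01 CPM in the other libraries (log2 difference 2.49, SE 0.74, adjusted p = 0.0409). Both P7 values lay within the range of the other libraries, which reached 68.0 CPM, and the call was lost without each of the 4 mice in turn (adjusted p = 0.0751 to 0.152). Uqcr10 of complex III was at 327, 298, 326 and 490 CPM against a median of 213 CPM (0.56, SE 0.17, adjusted p = 0.0464), with ranges that overlap.

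Cox8b came from a minority of cells. It had a read in 80 of 1618 early alveolar fibroblasts (4.94%), in 40 of 250 alveolar fibroblasts of P21 (16.0%, 32 of 181 in the female and 8 of 69 in the male), in 23 of 764 fibroblast precursors and in 14 of 598 early adventitial fibroblasts. It had none in 520 myofibroblasts, where up to 0.577% could hold one at this count, and none in 281 pericytes, where the limit was 1.07%. Early adventitial fibroblasts at 0.267 and 1.90 CPM (P1) and 4.17 and 0.474 CPM (P7) also passed the test for Cox8b (adjusted p = 0.0147). In that comparison 1 of 79 members was called beside 7.37% of all genes. Cox8b was highest in this subtype in 1 of 4 mice. The call was lost with limma (0.48, adjusted p = 0.4325) and without either P7 mouse. At P21, Cox8b stood at 10.4 and 14.2 CPM in alveolar fibroblasts, and it missed the threshold against 4 other subtypes (adjusted p = 0.0724). It passed with DESeq2 and with limma (adjusted p = 0.00251 to 0.107 over the alternatives).

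Striated muscle cells, of which 18 were found, had Cox8b reads in 14. In the library of 16 such cells Cox6a2 was at 1832 CPM. Early alveolar fibroblasts held at most 0.00663 CPM of Cox6a2 and at most 10.1 CPM of 6 cardiac markers, and P21 alveolar fibroblasts at most 0.446 CPM and 5.24 CPM. The windows before the starts of Cox8b (chr7:140900447-140900696) and Cox6b2 (chr7:4753095-4753344), both on the minus strand of GRCm38.p6, are printed because both passed the test in early alveolar fibroblasts. Neither holds any of the 4 motifs.

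Cox8b: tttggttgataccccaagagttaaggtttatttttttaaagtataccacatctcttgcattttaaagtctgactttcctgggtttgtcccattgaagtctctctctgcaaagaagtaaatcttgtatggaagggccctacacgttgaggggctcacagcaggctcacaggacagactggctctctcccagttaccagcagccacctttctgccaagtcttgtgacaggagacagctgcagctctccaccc
Cox6b2: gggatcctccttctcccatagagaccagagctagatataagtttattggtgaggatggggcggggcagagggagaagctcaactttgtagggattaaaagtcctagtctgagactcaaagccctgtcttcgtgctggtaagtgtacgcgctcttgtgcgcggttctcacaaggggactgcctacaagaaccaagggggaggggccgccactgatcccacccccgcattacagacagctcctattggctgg

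In the contractile subtypes single subunits were called, at shares of members below those of all genes. Myofibroblasts, which lay down elastin in the growing septa, had 1 member called of 79, beside 3.12% of all genes. Cox5a, a structural subunit of complex IV, was at 223 and 225 CPM at P1 and 151 and 202 CPM at P7 in them, against a median of 86.3 CPM in the other libraries (1.06, SE 0.25, adjusted p = 0.0178), and was highest there in 3 of 4 mice. Early airway smooth muscle had 3 members lower and 0 higher, beside 5.08% of all genes. All 3 are accessory subunits of complex I: Ndufa10 (log2 difference -0.81, SE 0.20, adjusted p = 0.0158), Ndufa7 (-0.70, SE 0.17, adjusted p = 0.0206) and Ndufa13 (-0.66, SE 0.19, adjusted p = 0.0416). Ndufa7 was at 235 and 168 CPM at P1 and 167 and 206 CPM at P7 there, the lowest subtype in 4 of 4 mice, and Ndufa10 and Ndufa13 were lowest in 3 of 4. The median difference over the 79 members in early airway smooth muscle was -0.36, with 6 positive, against 0.07 over all genes.

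In vascular smooth muscle 2 members were higher and 0 lower, beside 6.07% of all genes. Ndufa10 was at 261 and 301 CPM at P1 and 512 and 409 CPM at P7 (log2 difference 0.97, SE 0.17, adjusted p = 0.000966), the highest subtype in 4 of 4 mice. Cox7a2l, a factor of supercomplex assembly, was at 241, 267, 145 and 379 CPM (0.86, SE 0.24, adjusted p = 0.0375), highest in 3 of 4. Pericytes had 2 members higher and 2 lower, beside 11.6% of all genes. Besides Ndufa4, Uqcr10 was lower at 157, 138, 211 and 207 CPM (-0.59, SE 0.19, adjusted p = 0.0446). Atp5c1, the gamma subunit in the central stalk of ATP synthase, was higher at 642, 688, 671 and 638 CPM (0.62, SE 0.15, adjusted p = 0.00868), and so was Ndufs8, an iron-sulfur subunit, at 269, 212, 389 and 485 CPM (0.70, SE 0.19, adjusted p = 0.0212).

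Over the 6 subtypes the members' medians were 0.17 in early alveolar fibroblasts, -0.19 in early adventitial fibroblasts, 0.20 in myofibroblasts, -0.36 in early airway smooth muscle, 0.15 in vascular smooth muscle and 0.08 in pericytes. Those of all genes were 0.23, 0.18, 0.09, 0.07, -0.11 and -0.22. These calls rest on few animals. Of the 14, 5 remained without the P1 female, 5 without the P1 male, 2 without the P7 female and 5 without the P7 male. The share of all genes called fell as well, from 6.94% to 4.56%, 5.37%, 4.41% and 4.77% in the same order. Cox8b in early alveolar fibroblasts was the call that passed without each of the 4 mice in turn. Ndufa10 in vascular smooth muscle missed without the P7 female (0.72, adjusted p = 0.0612) and with limma (0.57, adjusted p = 0.0748).

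At P21, Ndufa4 in pericytes was the only call of edgeR among 5 subtypes, beside 4.72% of all genes in pericytes, 2.2% in alveolar fibroblasts, 2.4% in adventitial fibroblasts, 2.12% in airway smooth muscle and 1.7% in vascular smooth muscle. Ndufs8 had the smallest p in airway smooth muscle (-1.22, SE 0.42, adjusted p = 0.268) and Atp5a1 in vascular smooth muscle (0.79, SE 0.28, adjusted p = 0.256). In vascular smooth muscle 62 of 80 members had a positive difference (median 0.33, all genes -0.34). At E18.5, precursors of myofibroblasts and smooth muscle were compared with fibroblast precursors, and 0 of 79 members passed by edgeR, where 0.275% of all genes were called and 1 member had an unadjusted p under 0.05. The members' median was -0.29, with 15 positive, and the smallest p was that of Cox8b (adjusted p = 0.792).

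In proliferating fibroblasts 3 of 78 members were higher than in comparison cells of the same mice and 0 lower, beside 4.98% of all genes. The comparison cells were fibroblast precursors at E18.5 and early alveolar fibroblasts at P7, so their label changed with age. Adventitial fibroblasts were not among them. The 4 adventitial markers summed to 467 to 2559 CPM in proliferating fibroblasts, 563 to 719 CPM in fibroblast precursors and 513 to 1779 CPM in early alveolar fibroblasts. The part of fibroblast type in these calls was not tested. Cox6b2 was at 116 CPM in the E18.5 female, 186 in the E18.5 male, 72.3 in the P7 female, 170 in the hyperoxia female and 233 in the hyperoxia male. The comparison cells were at 80.0, 65.3, 33.7, 117 and 98.1 CPM, and each of the 5 mice had the higher value in the proliferating cells (1.09, SE 0.21, adjusted p = 0.0205). Cox7a2, the ubiquitous isoform of subunit VIIa, was at 369, 402, 347, 340 and 224 CPM against 241, 198, 237, 198 and 162 CPM (0.79, SE 0.15, adjusted p = 0.02). Ndufv2, a core subunit of complex I, was at 294, 400, 403, 286 and 241 CPM against 190, 233, 234, 232 and 181 CPM (0.68, SE 0.15, adjusted p = 0.0348). Each of the 3 calls was lost without the E18.5 male or without either hyperoxia mouse. In proliferating myofibroblasts no member of 78 passed in edgeR, beside 1.31% of all genes, with 4 at an unadjusted p under 0.05. The smallest p there was that of Ndufa6, an accessory subunit of complex I (-0.88, SE 0.23, adjusted p = 0.201).

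Birth moved few members past the threshold. The comparison of P1 with E18.5 was made in 4 classes and, since fibroblast precursors give way to early alveolar fibroblasts, also between those labels. Ndufs1, the largest core subunit of complex I, rose in early alveolar fibroblasts from 1.32 CPM in the female and 6.45 CPM in the male to 68.4 and 63.3 CPM (4.14, SE 0.92, adjusted p = 0.0414). It was the only call among 80 members, beside 6.04% of all genes. The call was kept in 8 of 18 alternatives and was lost without either P1 mouse, either P7 mouse in normal air or hyperoxia, or either P21 mouse (adjusted p = 8.25e-06 to 0.689). The E18.5 values rest on 5 and 76 reads in the thin libraries of 14 and 24 cells. In this comparison the median of all genes was 1.36, or 1.13 with DESeq2's size factors, and 18 of 80 members were positive with a median of -0.31. Epithelial markers summed to 849 CPM in the E18.5 female library (3 of 7 genes above 0) and to 29.8 CPM in the male. Their part in the call was not tested.

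In adventitial fibroblasts 69 of 79 members were positive across birth, with a median of 0.48 against 0.16 of all genes and 0.50 of the genes with at most 2259 exonic bases, which is the upper quartile of the members' lengths. Adventitial fibroblasts had 0 members called by edgeR, beside 0.164% of all genes, and 13 at an unadjusted p under 0.05. Uqcrq, a small subunit of complex III, had the smallest p, with 80.9 and 81.0 CPM at E18.5 and 188 and 215 CPM at P1 (1.28, SE 0.39, adjusted p = 0.36). The values of the 2 ages did not overlap, but Uqcrq was picked by its p-value, so this is not a separate result. In pericytes, beside 0.042% of all genes, no member was called and 0 had an unadjusted p under 0.05. The median was 0.01, with 40 of 78 positive, and Uqcrfs1 had the smallest p (-1.15, adjusted p = 0.845).

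From smooth muscle precursors to early airway smooth muscle the median was 0.31 (57 of 78 positive, all genes -0.19), 0 members were called beside 0.669% of all genes, and 2 had an unadjusted p under 0.05. Cox7a2l had the smallest p, with 194 and 304 CPM at E18.5 and 121 and 53.6 CPM at P1 (-1.46, SE 0.50, adjusted p = 0.366). From fibroblast precursors to early alveolar fibroblasts the median was 0.17 (59 of 80 positive, all genes -0.02), with 0 members called beside 0.125% of all genes and 0 at an unadjusted p under 0.05. Uqcrq was first there too (0.88, SE 0.42, adjusted p = 0.878). It passed when the 4 mice of E18.5 and P1 were fitted alone (0.87, adjusted p = 0.0369).

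From P1 to P7 no member was called by edgeR in any of 6 classes. The share of all genes called was 0% in alveolar and adventitial fibroblasts, pericytes, vascular smooth muscle and myofibroblasts, and 0.0282% in airway smooth muscle. At an unadjusted p under 0.05 there was 1 member each in adventitial fibroblasts, vascular and airway smooth muscle and 0 in the other 3. Medians were 0.20 in alveolar fibroblasts (58 of 80 positive), -0.16 in adventitial fibroblasts (18 of 79), -0.03 in pericytes (38 of 78), 0.25 in vascular smooth muscle (51 of 78), -0.35 in airway smooth muscle (17 of 78) and -0.16 in myofibroblasts (26 of 78). Those of all genes were -0.05, -0.07, 0.03, 0.13, 0.11 and 0.18. Over the alternatives the members' median took both signs in alveolar fibroblasts (-0.13 to 0.52), pericytes (-0.17 to 0.27), vascular smooth muscle (-0.10 to 0.54) and myofibroblasts (-0.29 to 0.10). It kept its sign in adventitial fibroblasts and airway smooth muscle.

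Among the members with the smallest p from P1 to P7, Ndufb10, an accessory subunit of complex I, went from 122 and 168 CPM to 283 and 582 CPM in vascular smooth muscle (1.55, SE 0.58, adjusted p = 0.991). Ndufs7, a core subunit, went from 348 and 251 CPM to 141 and 113 CPM in airway smooth muscle (-1.27, SE 0.41, adjusted p = 0.771). Neither pair of ages overlapped, which adds nothing to the test, since both genes were picked by p. Cox7c was first in myofibroblasts (93.5 and 71.3 CPM to 50.8 and 42.8 CPM, adjusted p = 0.639) and Atp5j2 in pericytes (174 and 148 CPM to 262 and 576 CPM, adjusted p = 1). In the fibroblast classes the smallest p belonged to the near-absent isoforms Cox7b2 (adjusted p = 1) and Cox7a1 (adjusted p = 0.831).

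From P7 to P21 the members' medians were below those of all genes in each class, with no call. The members' median was -1.07 in alveolar fibroblasts, -0.52 in adventitial fibroblasts, -0.91 in pericytes, -0.70 in vascular smooth muscle and -0.37 in airway smooth muscle, against -0.04, 0.10, 0.20, -0.09 and -0.08 over all genes. Only 5 of 80, 3 of 79, 7 of 78, 4 of 78 and 16 of 78 members were positive. By edgeR 0 members passed in each, beside 0.0702%, 0.118%, 0.0504%, 0.0886% and 1.8% of all genes, and 25, 9, 7, 6 and 11 had an unadjusted p under 0.05. In alveolar fibroblasts the 4 complexes had like medians, -1.11 for complex I, -0.97 for III, -1.08 for IV and -1.10 for V.

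Atp5e, the epsilon subunit of ATP synthase, had the smallest p in alveolar fibroblasts. Since it was picked by p, a lack of overlap between the ages is no separate result for it. It was at 374 CPM in the female and 509 CPM in the male at P7 and at 91.8 and 124 CPM at P21 (-2.09, SE 0.41, adjusted p = 0.242). The ages did not overlap, and Atp5e passed in 7 of 21 alternatives (adjusted p = 0.000144 to 1), among them DESeq2 and the fits without either E18.5 mouse. Cox4i1 went from 992 and 1315 CPM to 376 and 580 CPM there (-1.34, SE 0.37, adjusted p = 0.547), and it was lower at P21 in both sexes in all 5 classes. Ndufc2, an accessory subunit of complex I, went from 189 and 177 CPM to 64.3 and 70.7 CPM in airway smooth muscle (-1.40, SE 0.36, adjusted p = 0.106). It passed with DESeq2 and with limma (adjusted p = 0.00846 to 0.44 over the alternatives).

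In pericytes Uqcrh went from 335 and 363 CPM to 51.7 and 107 CPM (-2.31, SE 0.61, adjusted p = 0.675). Uqcrh passed with DESeq2 (adjusted p = 0.0082) and in edgeR's joint fit over all classes (adjusted p = 0.00531). Atp5g1, which encodes a subunit of the c-ring, was first in adventitial fibroblasts (111 and 124 CPM to 31.1 and 58.9 CPM, -1.43, SE 0.47, adjusted p = 0.38). Ndufc1 was first in vascular smooth muscle (206 and 314 CPM to 42.3 and 78.9 CPM, -2.10, SE 0.73, adjusted p = 0.605).

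The size of the P21 shift differed between the female and male pairs. On the log2(CPM + 1) scale the medians in females, whose ages were in different runs, were -1.32, -0.84, -1.30, -0.68 and -0.80 in alveolar and adventitial fibroblasts, pericytes, vascular and airway smooth muscle. In males, whose ages shared a run, they were -0.72, -0.19, -0.36, -0.55 and -0.05. Both sexes were lower at P21 in 67 of 80, 56 of 79, 51 of 78, 59 of 78 and 40 of 78 members. Without the P21 female the fitted medians were -0.69, -0.07, -0.48, -0.43 and 0.02, so that of airway smooth muscle changed sign. Without the P21 male they were -1.64, -1.17, -1.48, -1.17 and -0.98. Genes with at most 2259 exonic bases had all-gene medians of -0.35, -0.05, -0.23, -0.37 and -0.24. The part of transcript length in the shift was not tested. In alveolar fibroblasts the 4 alveolar markers summed to 24366 and 32608 CPM at P21 against 791 to 2710 CPM in early libraries. In alveolar fibroblasts, adventitial fibroblasts and airway smooth muscle the label changes with age, from an early label at P7 to another at P21, so that label and age cannot be told apart in these 3 classes.

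**Figure D4:**
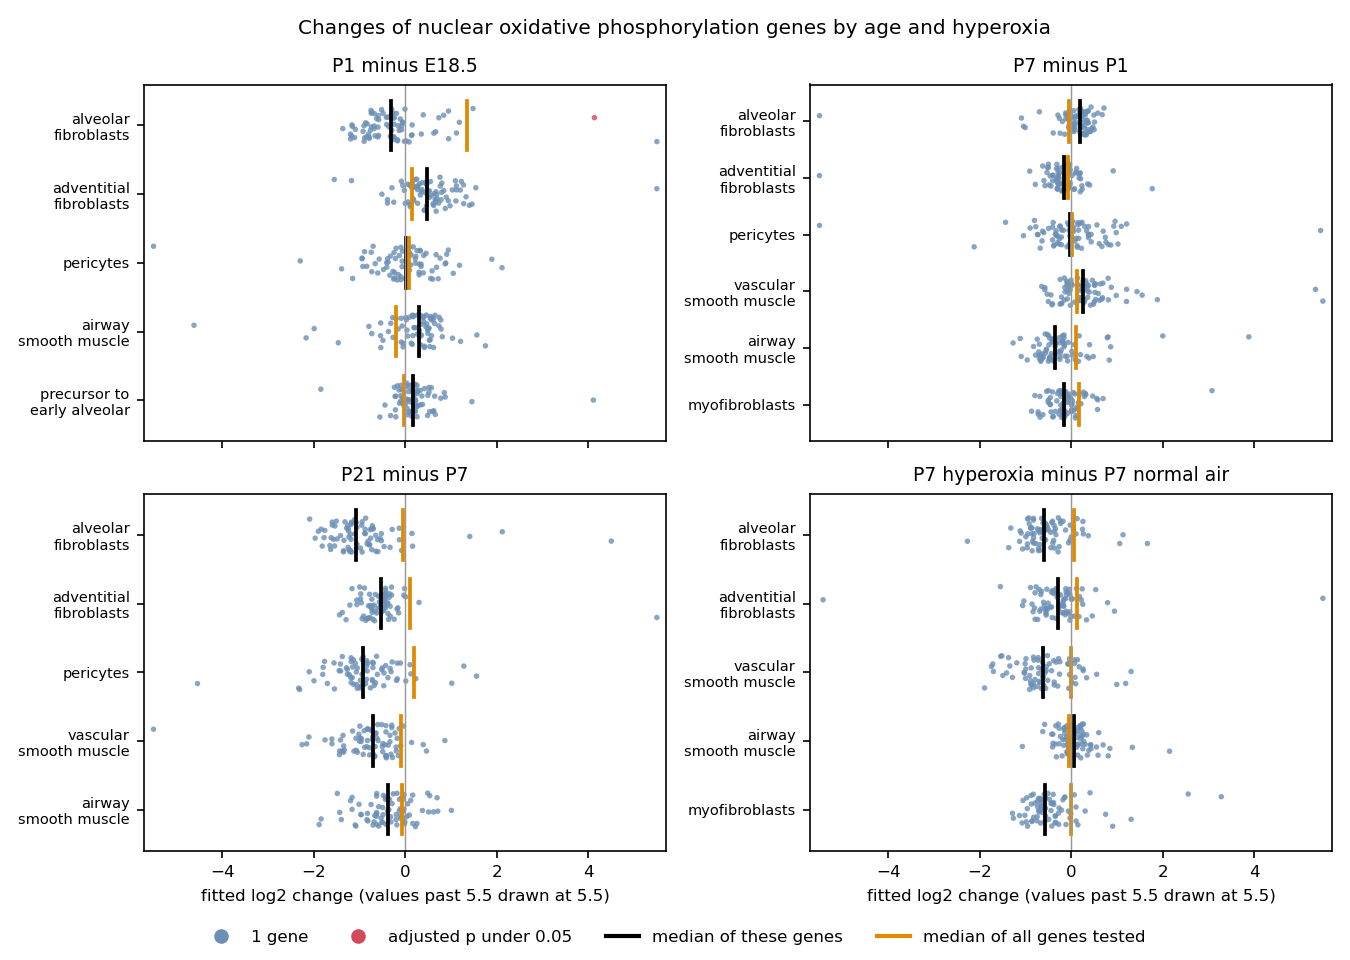
Fitted log2 changes (x axis) of the 81 genes, 1 point per gene, by cell class (rows) in 4 panels: P1 minus E18.5, P7 minus P1, P21 minus P7 and hyperoxia minus normal air at P7. Red points have an adjusted p under 0.05, black bars mark the members' median and orange bars that of all genes, and in the panel of P21 minus P7 the black bars lie at -0.37 to -1.07, left of the orange bars in all 5 classes.

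Under hyperoxia at P7 no gene of the table passed in any of 5 classes (0% of all genes called), and so 0 members were called by edgeR. With an unadjusted p under 0.05 there were 13 of 78 members in myofibroblasts, 4 in vascular smooth muscle, 3 in adventitial fibroblasts and 0 in alveolar fibroblasts and airway smooth muscle. The members' median was -0.60 in alveolar fibroblasts (10 of 80 positive), -0.28 in adventitial fibroblasts (15 of 79), -0.62 in vascular smooth muscle (14 of 78), 0.07 in airway smooth muscle (45 of 78) and -0.56 in myofibroblasts (11 of 78). Those of all genes were 0.06, 0.13, -0.01, -0.04 and -0.01. In males the medians on the log2(CPM + 1) scale were -0.95, -0.50, -0.99, -0.15 and -0.92, and in females -0.31, -0.10, -0.04, 0.14 and -0.30, in the same order. The hyperoxia mice had more genes per cell than the P7 mice in normal air, and the part of run and of complexity in these medians was not tested.

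The smallest p of each class under hyperoxia was that of Ndufc1 in alveolar fibroblasts (225 and 327 CPM in normal air, 116 and 87.0 CPM under hyperoxia, -1.36, adjusted p = 1), Ndufs7 in adventitial fibroblasts (263 and 275 CPM to 143 and 126 CPM, -1.03, adjusted p = 0.619) and Ndufb10 in vascular smooth muscle (283 and 582 CPM to 112 and 120 CPM, -1.89, adjusted p = 1). Atp5a1 came first in airway smooth muscle (560 and 490 CPM to 850 and 674 CPM, 0.59, adjusted p = 1). The values in normal air and under hyperoxia did not overlap for any of the 4 genes in its class. Each gene was picked by its p-value, so the lack of overlap adds nothing to the test.

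Cox6b2 in myofibroblasts went against the set. It was at 13.1 CPM in the female and 4.71 CPM in the male in normal air and at 91.6 and 71.0 CPM under hyperoxia (3.28, SE 0.80, p = 0.00526, adjusted p = 0.546 by edgeR). P1 myofibroblasts were at 8.0 and 18.5 CPM, so the hyperoxia libraries lay above all 4 in normal air. Cox6b2 had the smallest p of the members in this class, so the lack of overlap adds nothing to the test. The test passed in 4 of 20 alternatives: DESeq2 (3.30, adjusted p = 0.00117), the 4 P7 mice fitted alone (3.41, adjusted p = 0.0194) and the fits without the P1 female (3.40, adjusted p = 0.00492) or the P1 male (3.34, adjusted p = 0.000151). Adjusted p ran from 0.000151 to 1 over the 20.

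The share of myofibroblasts with a Cox6b2 read was 13 of 155 (8.39%) in the female and 13 of 184 (7.07%) in the male in normal air. Under hyperoxia it was 49 of 58 (84.5%) and 39 of 45 (86.7%). Thinned to 100000 reads per cell, the shares were 7.24% and 6.18% in normal air and 82.8% and 80.0% under hyperoxia. Myofibroblasts under hyperoxia also had more genes per cell, 5111 and 6609 at the median against 2864 and 2833.5. In the same libraries the 4 alveolar markers summed to 19.3 and 9.41 CPM in normal air and 13.6 and 23.9 CPM under hyperoxia, and the 4 adventitial markers to 86.1 and 142 CPM and to 100.3 and 66.4 CPM. The 5 contractile markers summed to 10528 and 10418 CPM in normal air and 11434 and 4911 CPM under hyperoxia. The 5 immune markers summed to 67.2 and 36.1 CPM and to 116 and 79.4 CPM. The part of these other cell types in the result was not tested.

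In other classes Cox6b2 CPM was also higher under hyperoxia, except in vascular smooth muscle. It went from 5.93 and 13.0 CPM to 52.4 and 26.3 CPM in airway smooth muscle (2.15, adjusted p = 1), from 33.7 and 63.9 CPM to 117 and 98.1 CPM in alveolar fibroblasts (1.06, adjusted p = 1) and from 49.1 and 32.5 CPM to 89.7 and 70.6 CPM in adventitial fibroblasts (0.95, adjusted p = 0.726). In vascular smooth muscle it was at 46.2 and 23.1 CPM and at 25.4 and 17.0 CPM (-0.81, adjusted p = 1), a difference that was 1.17 without the P7 female in normal air. The groups overlapped in none of these classes but vascular smooth muscle, where the female in hyperoxia lay above the male in normal air. Cells with a read went from 73 of 218 and 43 of 147 to 130 of 212 and 207 of 242 in early alveolar fibroblasts, and from 9 of 75 and 9 of 64 to 24 of 58 and 10 of 22 in early airway smooth muscle. In vascular smooth muscle they went from 5 of 27 and 5 of 31 to 8 of 22 and 6 of 22, so that the share of cells and the CPM differed in direction there and no order is read from either.

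The ubiquitous isoform Cox6b1 had lower values under hyperoxia in alveolar fibroblasts, myofibroblasts and vascular smooth muscle, and higher ones in airway smooth muscle. It was at 329 and 450 CPM in normal air and 271 and 206 CPM under hyperoxia in myofibroblasts, at 395 and 525 CPM against 304 and 262 CPM in alveolar fibroblasts, and at 223 and 246 CPM against 262 and 282 CPM in airway smooth muscle. No test compared the 2 isoforms.

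**Figure D5:**
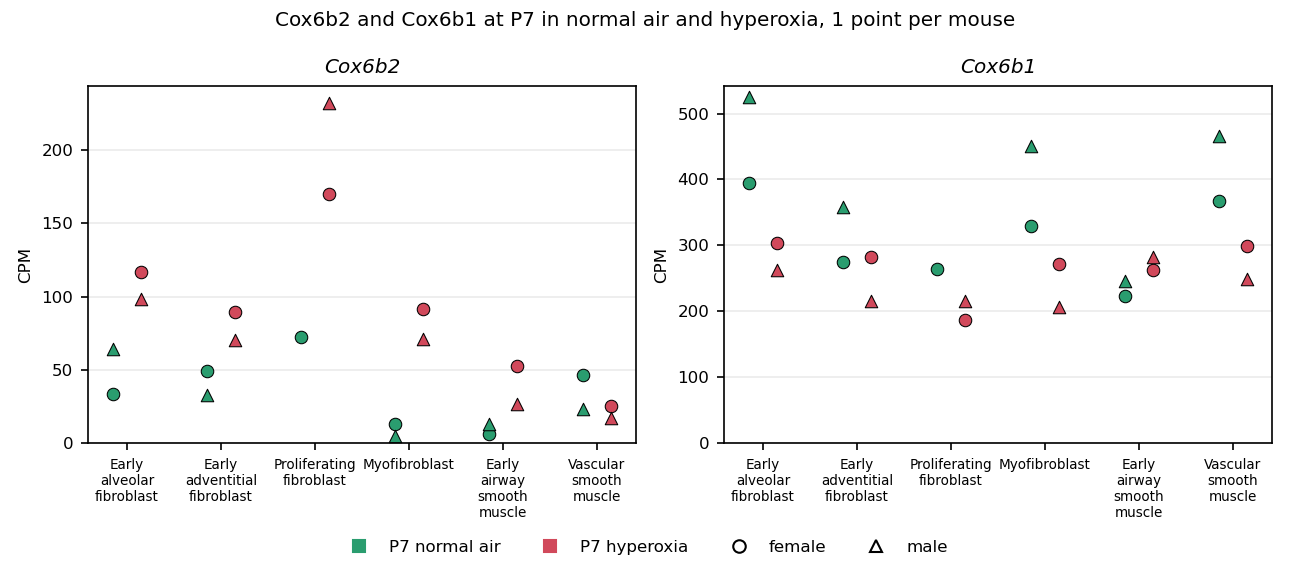
Levels of Cox6b2 and Cox6b1 (CPM, linear axis) at P7 in normal air and under hyperoxia in 6 subtypes, with 1 point per library, a circle for the female and a triangle for the male. In myofibroblasts Cox6b2 lies at 4.71 and 13.1 CPM in normal air and at 71.0 and 91.6 CPM under hyperoxia.

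Whether contractile cells and fibroblasts changed differently was tested on their differences within mice, compared between groups of different mice. From P1 to P7 no member of 81 differed in its change by edgeR, beside 0.051% of all genes, with 2 at an unadjusted p under 0.05. The smallest p was that of Cox5a (-0.73, SE 0.32, adjusted p = 0.734). For hyperoxia none of 80 differed, beside 0.0562% of all genes, with 0 at an unadjusted p under 0.05, and Ndufs4 came first (0.53, SE 0.25, adjusted p = 0.783). Over all 37 comparisons, 19 of 2922 tests of members passed. They fell on 14 members, and the other 67 passed in none. The share of member tests that passed was 0.65%, against 1.93% of the 526558 tests of all genes.

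Other mitochondrial and energy genes were described by the same counts. From P7 to P21 the 82 mitochondrial ribosome genes had medians of -1.00, -0.66, -0.76, -0.99 and -0.32 in alveolar and adventitial fibroblasts, pericytes, vascular and airway smooth muscle, with 0 called. The 13 genes of the TCA cycle, which feeds complex I with NADH, had medians of 0.05, 0.11, 0.40, 0.01 and -0.03, with 0 called, and the 4 of complex II had -0.92, -0.17, -0.32, -0.50 and -0.56, with 0 called. The 16 glycolysis genes had 0.45, 0.18, 0.16, 0.06 and 0.71. Of these, Aldoa (aldolase) rose in airway smooth muscle (2.24, SE 0.43, adjusted p = 0.0278) and was the only call. The 10 electron carriers and exchangers had -0.51, -0.32, -0.84, -0.72 and 0.12, and the 12 regulators of biogenesis (11 tested in the mural classes) -0.67, 0.44, 0.70, -0.77 and 0.28, with 0 called in both. Assembly factors, of which 31 or 32 were tested, had -0.66, -0.11, 0.05, -1.33 and -0.32, with 0 called.

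Under hyperoxia, with 0 calls, medians of the glycolysis genes were 0.45 in alveolar fibroblasts, 0.22 in adventitial fibroblasts, 0.52 in vascular smooth muscle, 0.29 in airway smooth muscle and 0.86 in myofibroblasts, and those of the mitochondrial ribosome -0.53, -0.41, -0.65, -0.003 and -0.48. Across birth the glycolysis genes had a median of -1.99 in pericytes, with 0 of 16 positive and 0 called, while the members' median there was 0.01.

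Between subtypes at P1 and P7, Slc25a5, an ADP/ATP carrier, was higher in early alveolar fibroblasts (1.12, SE 0.18, adjusted p = 0.000218) and myofibroblasts (0.76, SE 0.18, adjusted p = 0.0197) and lower in early adventitial fibroblasts (-1.20, SE 0.21, adjusted p = 0.000738). Ldha, lactate dehydrogenase, was higher in myofibroblasts (1.39, SE 0.18, adjusted p = 5.06e-05) and lower in pericytes (-1.20, SE 0.21, adjusted p = 0.000665). The glycolytic genes Pfkp (-5.05) and Pkm (-1.50) were lower in early alveolar fibroblasts (adjusted p = 0.00188 and 0.000969), and Eno1 was higher in vascular smooth muscle (1.17, adjusted p = 0.0022). In proliferating fibroblasts Aldoa was lower (-1.72, SE 0.19, adjusted p = 0.00131) while Idh3a of the TCA cycle was higher (1.02, SE 0.24, adjusted p = 0.0472).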

How the data were processed

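Single cells of the distal lung were measured by plate-based RNA sequencing, from a mesenchymal sort but for 71 cells of CD31 or CD45 sorts. An alternative left those cells out. The deposited table holds raw read counts per gene and cell, made by the authors with STAR 2.5.2b and HTSeq 0.10, per the submitters' processing notes. How multiply mapped reads were counted is not given in the sources used here. Subtype, mouse, age, sex and exposure came from the labels. Doublets were not called here.

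Counts were summed per mouse and subtype, keeping sums of at least 10 cells, and tested in edgeR 4.0.16 (quasi-likelihood, TMM scaling, R 4.3.3) with Benjamini-Hochberg adjustment over all genes tested and a threshold of 0.05. Age and hyperoxia fits took sex, which is the replicate label, as a term, and pooled the spread over the groups of a class. Subtype fits took the mouse as a block and compared each subtype with the mean of the others. P-values of the age and hyperoxia fits rest on 2 mice per group, after the sex term and with the spread pooled over groups. Those of the fits with a mouse block measure how a difference between subtypes varies from mouse to mouse. Cells were thinned to 100000 reads for shares of cells, and no fold of Ndufa4 is given where pericytes had fewer than 3 counts. Intervals are 95% Wilson intervals. Alternatives were DESeq2 1.42.0, limma 3.58.1 on mean CPM with a pseudocount of 1, other size factors, no filter on low counts, at least 20 cells per library, cells with at least 1000 genes, other sets of mice or cells, no replicate block, a joint fit, and leaving out each mouse. The fits were tested on simulated data.

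Members passing the threshold are named, up to 6 per comparison, and otherwise the member with the smallest p. Also named are the isoform pairs of complex IV, the 2 highest and 2 lowest members of each complex by median CPM, and up to 3 listed genes per comparison. The alveolar and epithelial marker lists and the gene lists, like the members, were chosen with earlier results of these data known. The counts cover no cytosolic ribosomal protein genes, so these were not analysed here.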

Additional observations from a re-analysis of the deposited data

Results flagged for a closer look

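The striated muscle library, 16 cells of the P21 female that entered no comparison, gave 7.30% of its reads to the 81 genes. Its level of Cox6a2 was 1832 CPM, of Cox7a1 1410 CPM and of Cox8b 671 CPM, far above the other libraries. Its 6 cardiac markers summed to 126274 CPM.

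Across birth and from P1 to P7, the share of reads in the 81 genes moved in opposite directions in different cell classes. Both mice of a class were on 1 side, except in the cases given last. The difference between classes was not tested. Across birth the share was higher by 0.373 percentage points in the female and 0.457 in the male in adventitial fibroblasts, and by 0.250 and 0.114 in airway smooth muscle. The changes were -0.113 and -1.12 in alveolar fibroblasts, where the E18.5 libraries held only 14 and 24 cells, and -0.197 and -0.0986 in pericytes. From P1 to P7 the changes were 0.000966 and 0.663 in alveolar fibroblasts, so the female there hardly moved, and 0.123 and 0.140 in pericytes. They were -0.347 and -0.0955 in adventitial fibroblasts, -0.353 and -0.101 in airway smooth muscle and -0.134 and -0.0933 in myofibroblasts. The mice split in vascular smooth muscle from P1 to P7 (-0.0637 and 0.525). They also split across birth between fibroblast precursors and early alveolar fibroblasts (0.135 and -0.0238).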

How the results depend on the processing

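Counts of members called depended on the tool and on single mice, and the share of all genes called, given in parentheses, moved with the tool as well. Members called across birth numbered 1 (1.49%), against 5 with DESeq2 (9.58%), 4 with limma (3.75%), 2 with the 4 mice compared alone (0.726%), and 0 with DESeq2's size factors in edgeR (1.29%), with at least 20 cells per library (0.308%) or with at least 1000 genes per cell (0.262%). Members called from P1 to P7 numbered 0 (0.00483%), against 1 with DESeq2 (3.37%) and 1 in the joint fit (0.212%). Members called from P7 to P21 numbered 0 (0.435%), against 8 with DESeq2 (7.35%), 3 with limma (1.06%), 5 in the joint fit (0.704%), and 1 each with at least 20 cells (0.812%), with at least 1000 genes (0.717%) and without the E18.5 early alveolar libraries (1.16%). Members called under hyperoxia numbered 0 (0%), against 1 with DESeq2 (2.05%) and 1 with the 4 mice compared alone (0.148%). Members called between subtypes at P1 and P7 numbered 14 (6.94%), against 27 with DESeq2 (15.1%), 31 with limma (10.2%) and 33 with the hyperoxia mice added (11.4%). Members called between subtypes at P21 numbered 1 (2.63%), against 7 with DESeq2 (13%), 3 with limma (3.93%) and 0 with at least 20 cells (2.37%). Members called in proliferating cells numbered 3 (3.21%), against 9 with DESeq2 (13.6%) and 1 with at least 20 cells (2.19%). Members called between precursors at E18.5, and in the difference between contractile cells and fibroblasts, numbered 0 in each alternative run.

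Leaving out 1 mouse gave 0 to 17 calls across birth (17 without the E18.5 female), 0 from P1 to P7, 0 to 2 from P7 to P21 and 0 to 3 under hyperoxia. Between subtypes at P1 and P7 it gave 2 to 14 calls, where 14 came from leaving out mice of other ages, which are not in that fit. In proliferating cells it gave 0 to 3. Leaving out P21 mice gives no value for subtypes at P21, and leaving out E18.5 mice none for the precursors. Where 17 members were called across birth, the share of members called was below that of all genes. For the largest counts from P7 to P21 and under hyperoxia, the share of members was above that of all genes. Each of these fits left 1 mouse in a group, so no result is read from the counts. With no replicate block for sex, members called numbered 1 across birth (2.33% of all genes), 0 from P1 to P7 (0.00845%), 0 from P7 to P21 (0.543%) and 0 under hyperoxia (0%). These member counts equal those of the main fits, where the shares of all genes were 1.49%, 0.00483%, 0.435% and 0%. Cox6b2 under hyperoxia in vascular smooth muscle ran from -2.49 without the hyperoxia female to 1.17, a reversal, without the P7 female in normal air. The causes were not tested. DESeq2's size factors moved the median of all genes by more than 0.1 in 4 comparisons: across birth (-0.22), from P7 to P21 (0.11) and under hyperoxia (0.10) in alveolar fibroblasts, and in vascular smooth muscle at P21 (0.10).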
